A study of Xenopus laevis with 4 samples.

Results

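The comparison set 2 arrays of explants injected with ICD RNA against 1 array of explants injected with DBM RNA, 3 of the 4 arrays of the series, over all 32539 probe sets that are not controls. Embryos of the frog Xenopus laevis received the synthetic RNA at the 2-cell stage, their presumptive ectoderm (the animal cap) was cut off at stage 9/10 and kept on fibronectin in Danilchik's medium with 0.1% BSA, and explants were harvested for RNA at a stage equal to 12. In this field ICD stands for the Notch intracellular domain, which signals without ligand, and DBM for a form of rbpj, the transcription factor through which Notch acts, that cannot bind DNA. The labels themselves do not spell the names out. The labels give no genotype, number of embryos, clutch or amount of RNA, and uninjected caps were not analysed here, so each difference is between active and blocked signaling and gives no resting level.

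Notch is a receptor that, once bound by a Delta or Jagged ligand on a neighbouring cell, is cut so that its intracellular domain enters the nucleus and joins rbpj, also called Su(H), on DNA. The complex turns on genes of the Hairy/Enhancer-of-split family, repressors that in turn shut off the ligand gene and the genes of specialised cell fates. In the frog epidermis this lateral inhibition limits how many cells of the inner layer become multiciliate cells or ionocytes, the cells that drive surface flow and that transport ions.

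The deposited signals had a 2% trimmed mean of 151 on ICD replicate 1 and 377 on ICD replicate 2, against 409 on the DBM array, so each array was rescaled to the common trimmed mean. The dim first ICD array also had lower poly-A spike-ins, at a mean of 187 against 518 on ICD replicate 2 and 581 on the DBM array, and a ratio of 3′ to 5′ gapdh signal of 1.93 against 1.30 and 1.29. After rescaling and a filter at the 40th percentile of mean signal, 19523 probe sets were tested, and over them the ICD arrays correlated with each other at r = 0.958 and with the DBM array at 0.912 and 0.927. Differences were taken on log2(signal + 16.9) and tested with limma. Fold values below are on this scale too, so for dim signals they are smaller than the ratio of the signals printed beside them. With a lone DBM array the spread comes from the ICD pair, the DBM array is assumed to vary like it, and nothing in the labels says that the ICD arrays came from separate clutches, so the p-values measure a spread that may be technical.

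The injected agents were looked for first. A probe set of rbpj.S (Entrez Gene 399453) stood at 316 and 345 on the ICD arrays, against 3393 on the DBM array, a 9.83-fold excess with DBM (log2 difference -3.3 ± 0.26 SE, limma adjusted p = 0.00388). The other rbpj.S probe sets showed no such excess. The brighter of them stood at 988 and 1081 with ICD and 1338 with DBM, the dimmer at 197 and 136 with ICD and 123 with DBM. RNA of the injected mutant and RNA of the embryo's own gene cannot be told apart here. notch1.S, the receptor gene, stood at 626 and 922 on the ICD arrays, against 1154 on the DBM array, and did not pass the test (log2 difference -0.59 ± 0.31 SE, limma adjusted p = 0.596). Nothing in the files says whether its probes lie in the part of Notch that ICD carries.

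Active Notch and the DBM block separated the caps in both directions, with Hairy/Enhancer-of-split genes at the top of the difference and multiciliate cell, ionocyte and Delta genes at the bottom. A probe set is named called where the adjusted p lay below 0.05. Of the 19523 probe sets 424 were called, 2.17% of those tested, with 166 higher (0.85%) and 258 lower (1.32%) with ICD. The called probe sets had a median log2 difference of 2.49 on the higher side and -2.38 on the lower side, and none was called at a difference nearer to 0 than 1.38 or -1.42. Counted by named gene, with 1 probe set each, 204 of 7741 (2.64%) were called, 75 (0.969%) higher and 129 (1.67%) lower. In a description that leaves the spread aside, 116 probe sets (0.594%) lay at least 4-fold above DBM and 182 (0.932%) at least 4-fold below it in each ICD array taken alone, and 284 of these 298 were also called. Among named genes these were 53 (0.685%) and 88 (1.14%). Of the called probe sets 180 have no gene name here. At an unadjusted p of 0.05 in limma, 11.6% of the tested probe sets passed in either direction. Each list count at this threshold below is to be read against that share. In 66 of the probe sets called lower the mean ICD signal lay under the filter level of 38.8, and in 33 of those called higher the DBM signal did. These passed the filter only through the side where they were high, and the list shares below count such members. Without the rescaling limma called 0 probe sets (90 had an unadjusted p under 0.05), so every call below rests on that step, and without the filter or without the intensity trend of the test 228 and 220 were called.

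**Figure D1:**
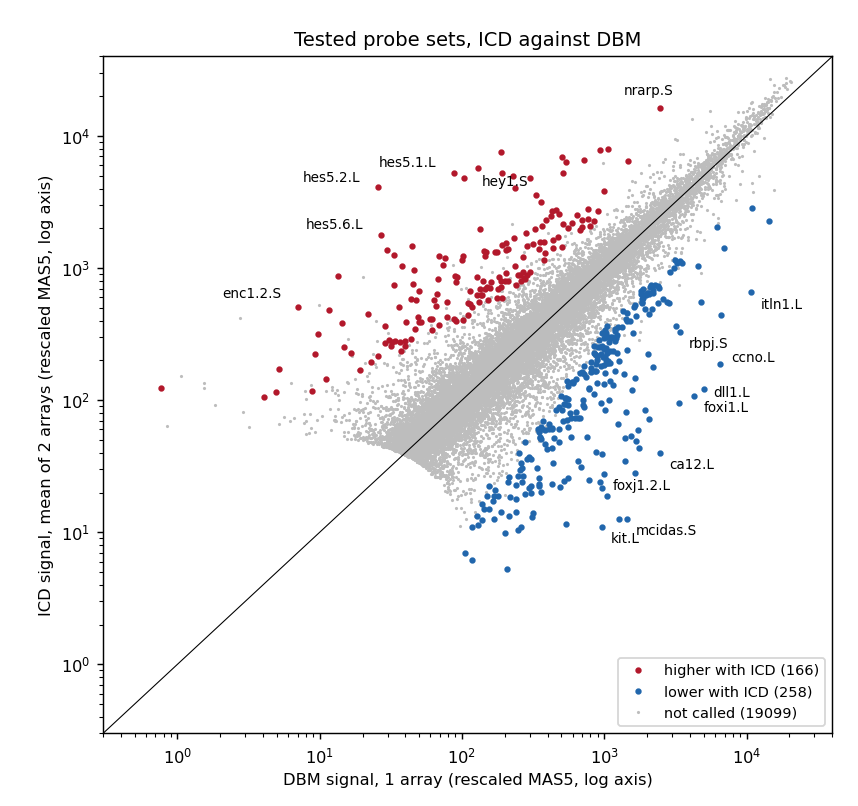
Each point is a tested probe set, with the rescaled MAS5 signal of the DBM array on the x axis and the mean of the 2 ICD arrays on the y axis, both logarithmic, and the line marks equal signal. The 166 called probe sets higher with ICD lie above the line with hes5.2.L among the farthest from it, and the 258 lower ones lie below it with mcidas.S, kit.L and ca12.L among the farthest.

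Most listed genes that Notch is known to turn on were higher with ICD, and most of those that rose belong to the hes5 cluster. Outside that cluster hey1.S, hes4.S and nrarp.S rose and hes1.L fell. The others, hes1.S, hes4.L, myc.L and myc.S, did not pass the test, so the median below mainly describes the hes5 genes. Of 20 listed Notch target genes on the array 17 passed the filter, and of these 12 rose, 1 fell and 4 did not pass the test, with a median log2 difference of 3.71 beside 0.02 over all named genes tested, of which 0.969% rose and 1.67% fell. The median was 3.34 when the dim members were kept. hes5.2.L (Entrez Gene 398151) had the largest difference among named genes. It stood at 3901 and 4288 on the ICD arrays, against 25.8 on the DBM array (log2 difference 6.59 ± 0.26 SE, limma adjusted p = 0.00108). Both ICD arrays were far above the DBM array, whose signal lay under the filter level of 38.8, and other settings gave values between 5.47 and 7.13. hes5.1.L had signals of 5327 and 5195 with ICD, against 88.3 with DBM, and its S copy 8754 and 6339 with ICD, against 188 with DBM. The ICD pair and the DBM array lay 50.1-fold and 36.5-fold apart for these copies (limma adjusted p = 0.00136 and 0.00183). hes5.6.L gave 1886 and 1679.6 with ICD, against 27.2 with DBM (log2 difference 5.35 ± 0.28 SE, limma adjusted p = 0.00176). Its DBM signal also lay under the filter level.

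The remaining tested hes5 genes, which encode repressors of the same cluster, moved the same way. hes5.5.S, hes5.2.S, hes5.7.L, hes5.10.L and hes5.3.L had log2 differences of 4.57, 4.13, 3.71, 3.37 and 3.3, each with both ICD arrays above DBM. The DBM signal of hes5.2.S, at 11.6, lay under the filter level. Probe sets of this cluster may share sequence, and their values are then not independent of each other. hey1.S, a repressor gene of a sister family, stood at 5744 and 5714 on the ICD arrays, against 129.7 on the DBM array. The ICD arrays almost coincided, 39.2-fold above DBM (log2 difference 5.29 ± 0.26 SE, limma adjusted p = 0.0015). nrarp.S, whose product binds the Notch complex and dampens it, had 19124 and 13549.6 with ICD, against 2458 with DBM. It rose 6.51-fold from a DBM signal that was already far above the filter level (log2 difference 2.70 ± 0.40 SE, limma adjusted p = 0.0282).

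For hes4 the S copy was called and the L copy was not. hes4.S stood at 5466 and 4431 on the ICD arrays, against 228 on the DBM array, a 20.2-fold difference, while hes4.L had 6507 and 5598 with ICD, against 3417 with DBM, with a log2 difference of 0.82 ± 0.32 that did not pass (limma adjusted p = 0.381). The probe set shown for each copy was higher on both ICD arrays. A further bright hes4.S probe set was also called, with 4340 and 3765 with ICD, against 236 with DBM. Dimmer hes4.S probe sets were not called, and ICD replicate 1 lay below DBM in them. They had 38.7 and 384 with ICD, against 64.9 with DBM, and 8.08 and 253 with ICD, against 8.70 with DBM. hes1.L, another Hairy gene, was the target gene that fell, with 69.8 and 91.6 with ICD, against 1426 with DBM (log2 difference -3.89 ± 0.35 SE, limma adjusted p = 0.00585). Its copy hes1.S had 65.6 and 48.1 with ICD, against 290.4 with DBM, with a log2 difference of -2.07 (limma adjusted p = 0.0598). Both hes1 copies were lower on both ICD arrays. myc.L (log2 difference 1.07, limma adjusted p = 0.225) and myc.S (0.16, 0.971) did not pass, and the myc.S signal of the DBM array lay between those of the ICD arrays.

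**Figure D2:**
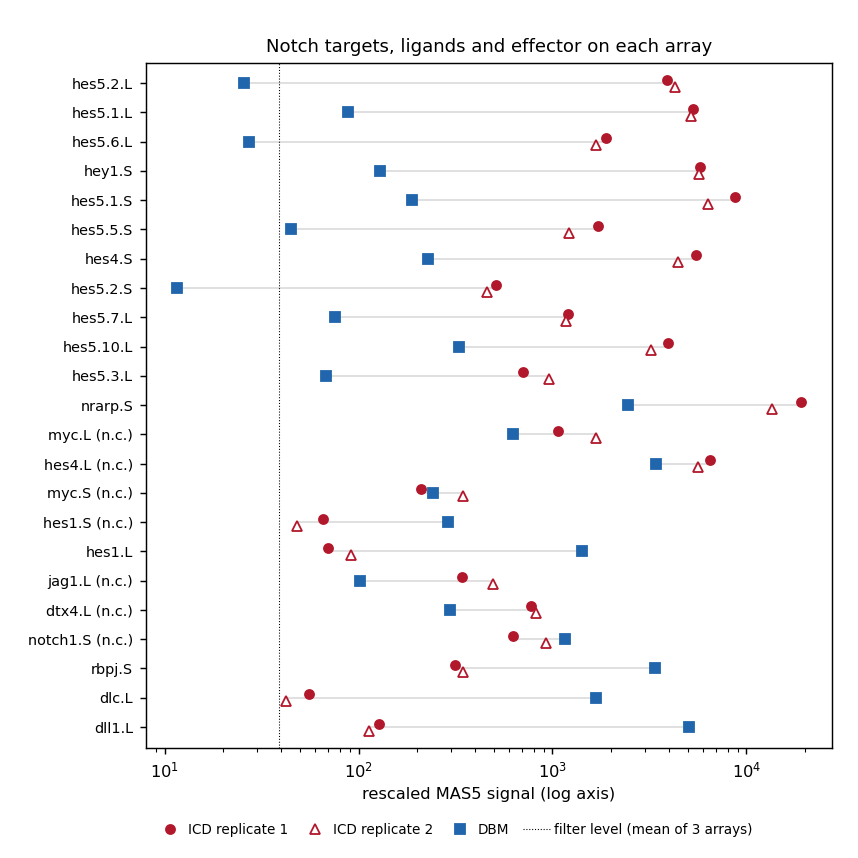
Rows are the 17 tested Notch target genes in order of difference, then ligand, receptor and effector genes, and the x axis gives the rescaled MAS5 signal on a log scale. Filled circles and open triangles are the ICD arrays, squares the DBM array, the dotted line the filter level of 38.8, and n.c. marks genes that were not called. In the 12 target genes that rose the ICD points lie together and to the right of DBM, and in dll1.L, dlc.L, rbpj.S and hes1.L they lie to the left.

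Both tested Delta genes fell. dll1.L, the Delta gene expressed by the cells that will specialise, had signals of 128 and 114 with ICD, against 5058 with DBM (log2 difference -5.20 ± 0.28 SE, limma adjusted p = 0.00179), a 36.9-fold difference. dlc.L, a further Delta gene, had 55.5 and 42.3 with ICD, against 1674 with DBM and was 25.8-fold lower (limma adjusted p = 0.00388). Both ICD arrays thus lay near the filter level for dlc.L. jag1.L, which encodes a ligand of the Jagged class, had 341 and 493 with ICD, against 102 with DBM. Its log2 difference of 1.85 ± 0.36 missed the threshold (limma adjusted p = 0.0599), as did that of dtx4.L, a Deltex gene, at 1.37 ± 0.27 (0.0578), although both ICD arrays were above DBM for each.

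No gene of the machinery that cuts, glycosylates or assists Notch passed the test. Of 34 listed ligand, receptor and machinery genes on the array 22 passed the filter, and the 3 that fell were dll1.L, dlc.L and the rbpj.S probe set described above, while 19 did not pass and 0 rose by limma (2 higher and 4 lower at an unadjusted p of 0.05). The median log2 difference of the 22 was -0.19, and 13.6% of them were called, beside 2.64% of all named genes tested. That share counts the rbpj.S probe set, in which injected RNA and RNA of the embryo's own gene cannot be told apart. The other rbpj.S probe sets were not called. The protease gene adam10.S had a value of -0.30 ± 0.31, the gamma-secretase genes psenen.L, psenen.S, aph1a.S and psen2.S values of -0.27, -0.25, -0.39 and -0.08, the coactivator gene maml1.L 0.21 ± 0.29 and the fringe gene rfng.L -0.26 ± 0.26. The ubiquitin ligase genes fbxw7.L and mib1.L had values of 0.43 and -0.02, the glycosyltransferase genes poglut1.S and pofut1.L 0.10 and -0.07, the cofactor gene snw1.S 0.09, and the corepressor genes ctbp1.S, hdac1.L and hdac1.S 0.16, -0.15 and -0.22. The convertase gene furin.L had 257 and 322 with ICD, against 782 with DBM, and its log2 difference of -1.39 ± 0.30 did not pass (limma adjusted p = 0.0817).

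**Figure D3:**
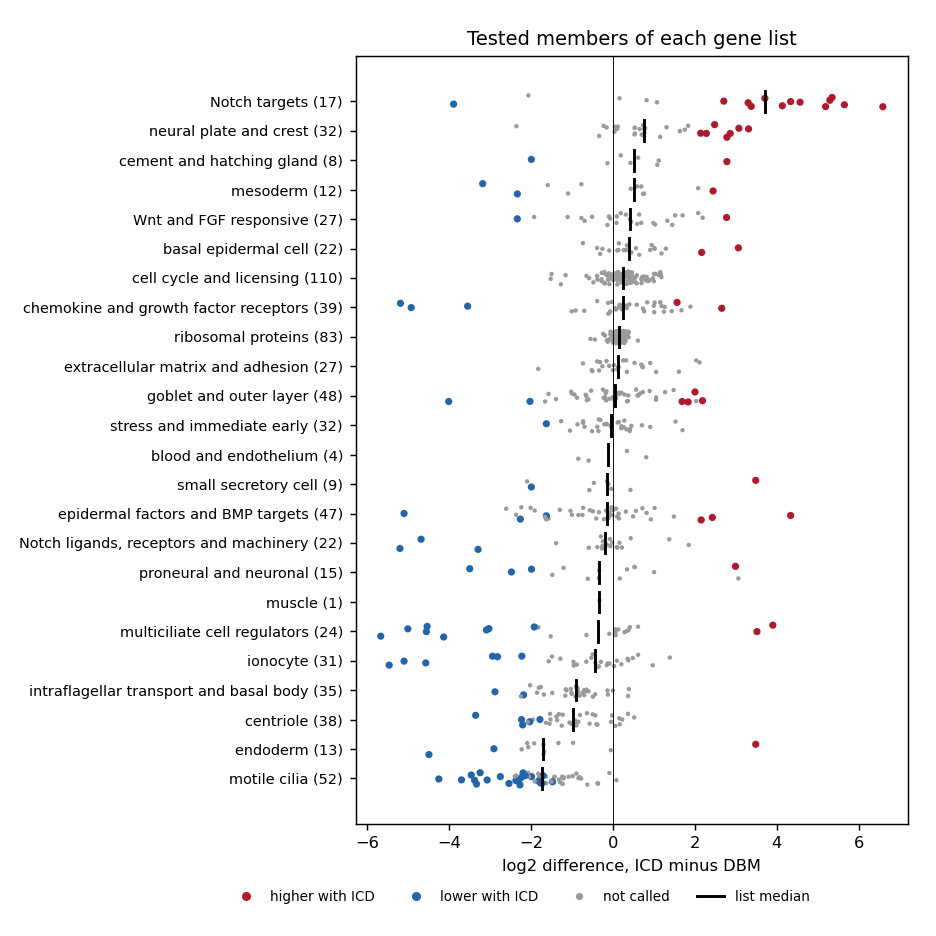
Each point is a tested gene of the list named on the y axis (number tested in brackets), placed by its log2 difference, ICD minus DBM, on the x axis, and the black bars are list medians. The Notch targets reach a median of 3.71, the motile cilia genes one of -1.74 with 21 called lower, and the ribosomal protein genes cluster at 0.14 with 0 called.

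Regulators of the multiciliate cell, the epidermal cell that carries many motile cilia, held several of the largest drops. Of 28 listed regulators on the array 24 passed the filter, and 8 fell, 2 rose and 14 did not pass. Calls thus made up 41.7% of the 24, beside 2.64% of all named genes tested. In whole explants, fewer cells of a type and less RNA per cell cannot be told apart. mcidas.S (Entrez Gene 100158359), which encodes multicilin, the coactivator that starts the program, stood at 5.18 and 20.0 on the ICD arrays, against 1443 on the DBM array (log2 difference -5.67 ± 0.46 SE, limma adjusted p = 0.00388). Both ICD signals lie under the filter level, and other settings gave values between -6.67 and -4.24. ccno.L, the gene of cyclin O, which multiciliate cells need to multiply their centrioles, had 160.5 and 216 with ICD, against 6549 with DBM (log2 difference -5.01 ± 0.29 SE, limma adjusted p = 0.00183). ccno.S had 58 and 85.3 with ICD, against 2048 with DBM, 23.6-fold lower with ICD. Both copies were well above the filter level with DBM and lower on both ICD arrays.

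The forkhead genes of the program dropped with them. foxn4.S had 33.1 and 45.4 with ICD, against 966 with DBM (log2 difference -4.14 ± 0.39 SE, limma adjusted p = 0.00641). foxj1.S, a copy of the master gene of motile cilia, had 398 and 327 with ICD, against 3205 with DBM, and foxj1.L had 281 and 339 with ICD, against 1221 with DBM. Both copies fell, with log2 differences of -3.09 ± 0.27 and -1.93 ± 0.29 (limma adjusted p = 0.0052 and 0.0286), and the paralog foxj1.2.L had 39.1 and 16.6 with ICD, against 992 with DBM and a difference of -4.54 ± 0.46 (limma adjusted p = 0.00733). fbxo43.L, the gene of an inhibitor of the anaphase-promoting complex, had 17 and 21.7 with ICD, against 279 with DBM (log2 difference -3.03 ± 0.40 SE, limma adjusted p = 0.0197). For fbxo43.L both ICD signals lay under the filter level, which it passed through the DBM array. rfx2.S, a ciliogenic regulator, had 231 and 155 with ICD, against 745 with DBM and narrowly missed the threshold (log2 difference -1.88 ± 0.35 SE, limma adjusted p = 0.0529). ccdc78.S, which acts in centriole multiplication, at -1.83 ± 0.48 (limma adjusted p = 0.146), and the cyclin gene ccna1.S at -1.52 ± 0.53 (0.299) did not pass either.

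The members of the list that rose were the copies of geminin, an inhibitor of DNA replication licensing that is related in sequence to multicilin. gmnn.L had 5627 and 3968 with ICD, against 301 with DBM (log2 difference 3.90 ± 0.31 SE, limma adjusted p = 0.00388). gmnn.S had 6908 and 5818 with ICD, against 539.7 with DBM (log2 difference 3.51 ± 0.29 SE, limma adjusted p = 0.00388). Each geminin copy was more than 10-fold higher on both ICD arrays. The E2F partners with which multicilin works were not called, with e2f4.S at 0.32 ± 0.31 (limma adjusted p = 0.872) and tfdp1.L at 0.06 ± 0.28 (0.983). With members going both ways the list's median was -0.37, and -0.02 with dim members kept.

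Structural genes of the motile axoneme were lower nearly throughout. Of 61 listed genes on the array 52 passed the filter, 21 fell, 0 rose and 31 did not pass (limma; 46 lower and 0 higher at an unadjusted p of 0.05). Both ICD arrays lay below DBM for 50 of the 52, beside 33.5% of all named genes tested. Calls made up 40.4% of the 52, beside 2.64% of all named genes tested. The median log2 difference was -1.74, and -1.59 with dim members kept. The count of 21 became 14 without the filter and 12 without the intensity trend of the test. cfap52.S, which encodes a protein inside ciliary doublet microtubules, had 26.1 and 23.8 with ICD, against 783 with DBM (log2 difference -4.26 ± 0.39 SE, limma adjusted p = 0.00592). The tektin genes tekt2.S and tekt4.S, whose products line the same microtubules, had 21.5 and 27 with ICD, against 519 with DBM, and 54.9 and 50.4 with ICD, against 750.3 with DBM. They lay 13-fold and 11-fold lower (limma adjusted p = 0.01 and 0.0104). For cfap52.S and tekt2.S both ICD signals lay under the filter level, which these genes passed through the DBM array. The radial spoke gene rsph1.L had 77.2 and 124 with ICD, against 1076 with DBM (log2 difference -3.25 ± 0.39 SE, limma adjusted p = 0.0148).

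Other axonemal genes fell with them. The dynein genes dnai1.L, dnal1.L and dnali1.S had log2 differences of -2.20, -2.75 and -2.15, the radial spoke gene rsph9.L -2.27, tekt1.L -2.24, and the tubulin gene tubb4b.S -3.08. Its copy tubb4b.L had 3709.7 and 3914 with ICD, against 6716 with DBM and did not pass (log2 difference -0.82 ± 0.30 SE, limma adjusted p = 0.352). catip.L and cfap70.L had ICD signals of 2.28 and 19.5, and of 2.07 and 18.9, under the filter level on both arrays. zmynd10.L, a dynein assembly gene, at -2.40 ± 0.44 (limma adjusted p = 0.0503), cfap126.L at -2.37 ± 0.47 (0.0629) and cfap45.S at -2.08 ± 0.46 (0.0889) had the largest differences among members not called. The summed signal of the tested members was 13823 and 15245 with ICD, against 40766 with DBM.

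The called centriole genes were all lower with ICD. Of 43 on the array 38 passed the filter, 5 fell, 0 rose and 33 did not pass (22 lower and 0 higher at an unadjusted p of 0.05). Calls made up 13.2% of the 38, beside 2.64% of all named genes tested. The median was -0.97, and both ICD arrays lay below DBM in 30 genes, beside 33.5% of all named genes tested. The 5 were cetn4.L, a centrin gene, with 162 and 129.6 with ICD, against 1643 with DBM (log2 difference -3.36 ± 0.31 SE, limma adjusted p = 0.00621), poc1a.L, which encodes a protein of the centriole wall, with a difference of -2.24 ± 0.27 (limma adjusted p = 0.0148), cep152.L, the gene of a scaffold for the kinase that starts centrioles, with -2.21 ± 0.34 (0.03), cep83.L with -2.04 ± 0.34 (0.0357) and stil.L with -1.79 ± 0.31 (0.0394). cep41.L (-2.08, limma adjusted p = 0.0516), poc5.L (-1.96, 0.0614) and cep135.L (-1.64, 0.0611) had the largest differences not called. A second, dimmer probe set of cep41.L was called lower, with 17.2 and 20.4 with ICD, against 169 with DBM (log2 difference -2.38, limma adjusted p = 0.0351). The number called was 9 under quantile normalization, 9 with the larger offset, 3 without the filter and 2 without the trend. Among genes that build or anchor the cilium (intraflagellar transport, basal body), 37 were on the array, 35 passed the filter, and bbs12.L (-2.88 ± 0.39, limma adjusted p = 0.021) and rabl2b.S (-2.19 ± 0.36, 0.0356) fell, 33 did not pass and 0 rose (20 lower and 0 higher at an unadjusted p of 0.05). The median was -0.90 and both ICD arrays were below DBM in 30 of the 35, beside 33.5% of all named genes tested. Of the 35, 5.71% were called, beside 2.64% of all named genes tested. dync2i2.L (-2.25, limma adjusted p = 0.0552), tmem107.L (-2.03, 0.0508) and rabl2b.L (-1.86, 0.0932) were the largest not called. That count of 2 became 4 with HMM in the fit, 7 under quantile normalization, 5 with the larger offset and 1 without the filter or without the trend.

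**Figure D4:**
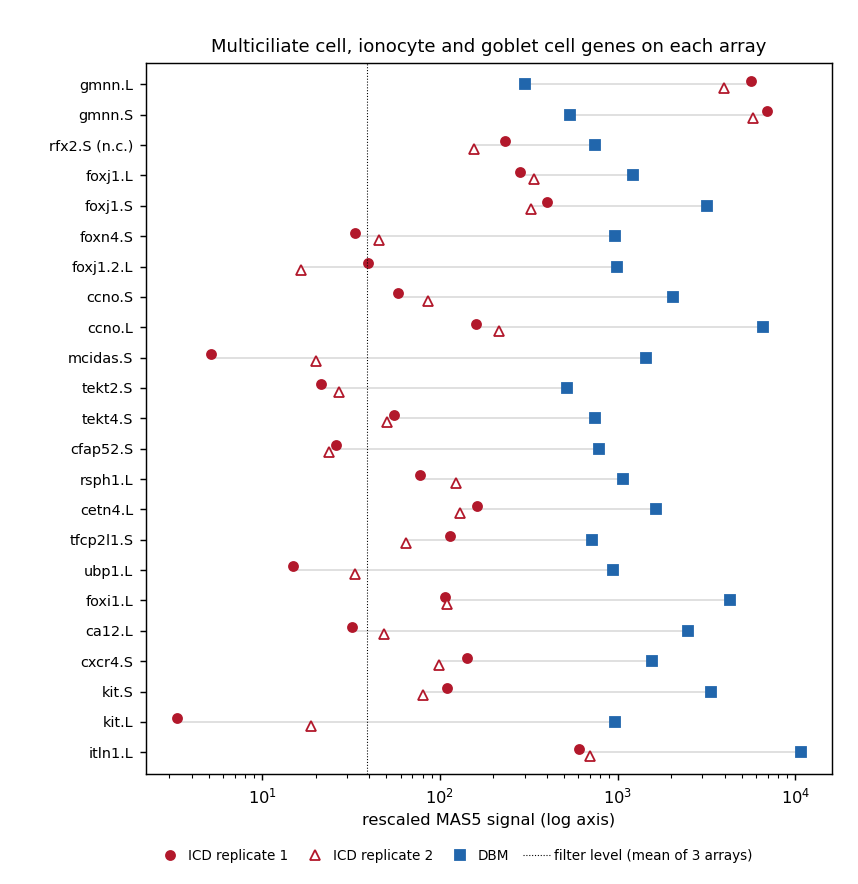
Rows are genes of multiciliate cells (gmnn.L to cetn4.L), ionocytes (tfcp2l1.S to ca12.L), the receptors cxcr4 and kit, and the goblet cell gene itln1.L, and the x axis gives the rescaled MAS5 signal on a log scale with symbols as in the Notch plot. Apart from the geminin copies, whose ICD points lie to the right, both ICD arrays lie to the left of the DBM array in each row. For mcidas.S, tekt2.S, cfap52.S, ubp1.L and kit.L they lie left of the filter level of 38.8. The rows are a choice from longer lists and do not stand for them. In the goblet and outer layer list 4 tested members rose and 2 fell. The ionocyte gene atp6v1f.L, not shown, lay above DBM on both ICD arrays and was not called.

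The called ionocyte genes were all lower with ICD and encode regulators, a carbonic anhydrase and proton pump subunits. Of 42 on the array 31 passed the filter, 6 fell, 0 rose and 25 did not pass (12 lower and 2 higher at an unadjusted p of 0.05), with a median of -0.43. Calls made up 19.4% of the 31, beside 2.64% of all named genes tested. foxi1.L (Entrez Gene 380059), the forkhead gene that specifies ionocytes, stood at 106 and 109.9 on the ICD arrays, against 4283 on the DBM array (log2 difference -5.10 ± 0.29 SE, limma adjusted p = 0.00179). ca12.L, a carbonic anhydrase gene, had 31.9 and 48.3 with ICD, against 2481 with DBM and was 44.2-fold lower with ICD (limma adjusted p = 0.00292). ubp1.L, a Grainyhead-family gene of these cells, had 14.9 and 33.5 with ICD, against 938 with DBM (log2 difference -4.58 ± 0.45 SE, limma adjusted p = 0.00693). tfcp2l1.S, of the same family, had 114 and 64.7 with ICD, against 715 with DBM (log2 difference -2.82 ± 0.42 SE, limma adjusted p = 0.0288). All these ICD signals were at least 5-fold under the DBM signal on the log2(signal + 16.9) scale. For ubp1.L both ICD signals lay under the filter level, which it passed through the DBM array.

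Of the proton pump, the subunit genes atp6v1g3.L (-2.94 ± 0.39, limma adjusted p = 0.0203) and atp6v1b1.L (-2.23 ± 0.39, 0.0408) fell. atp6v1g3.L had 15.3 and 11.2 with ICD, against 215 with DBM, and atp6v1b1.L had 18 and 19.5 with ICD, against 150.2 with DBM. Both ICD signals of each lay under the filter level, which these genes passed through the DBM array. atp6v0d2.L (-1.57 ± 0.53, 0.282) did not pass, and its ICD signals were 81.8 and 29.7. atp6v1f.L was above DBM on both ICD arrays, with 926 and 882 with ICD, against 336 with DBM, and missed the threshold (log2 difference 1.38 ± 0.26 SE, limma adjusted p = 0.0531). The sodium pump subunit gene atp1b2.L had 699 and 1591 with ICD, against 2999 with DBM and did not pass (log2 difference -1.49 ± 0.46 SE, limma adjusted p = 0.231).

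Among receptor genes, both kit copies and 1 cxcr4 copy fell. kit.S, which encodes a receptor tyrosine kinase, had 109.6 and 80.1 with ICD, against 3359 with DBM (log2 difference -4.93 ± 0.33 SE, limma adjusted p = 0.00242), and kit.L had 3.31 and 18.7 with ICD, against 966 with DBM (log2 difference -5.19 ± 0.48 SE, limma adjusted p = 0.00592). Both copies were far lower on each ICD array than on the DBM array. For kit.L both ICD signals lay under the filter level, which it passed through the DBM array. cxcr4.S, a chemokine receptor gene, had 141 and 99 with ICD, against 1572 with DBM (log2 difference -3.55 ± 0.35 SE, limma adjusted p = 0.00683). Its copy cxcr4.L had 1584 and 1231 with ICD, against 2829.6 with DBM and did not pass (log2 difference -1.01 ± 0.28 SE, limma adjusted p = 0.17). On the higher side were the ephrin receptor gene epha2.L, with 1707 and 2008 with ICD, against 279.98 with DBM (log2 difference 2.65 ± 0.26 SE, limma adjusted p = 0.00732), and smo.L, the signal transducer of the Hedgehog pathway, at 1.56 ± 0.28 (limma adjusted p = 0.044). These were the 5 calls among 39 tested receptor and ligand genes, or 12.8%, beside 2.64% of all named genes tested. epha4.S (1.89), ephb4.L (1.67) and ackr3.L (1.43) had the largest differences that did not pass. The other smo.L probe sets, at 1.91 and 1.24, were not called, and the smo.L call was lost in 3 of 8 alternative settings.

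Neuronal differentiation genes were few among those tested, 15 of 34 on the array. The cell cycle exit genes gadd45g.L and gadd45g.S had 189 and 170.2 with ICD, against 2207 with DBM, and 263 and 166 with ICD, against 885 with DBM. Both fell, by 3.50 and 1.99 on the log2 scale (limma adjusted p = 0.00388 and 0.0469), as did the zinc finger gene insm1.L (-2.48 ± 0.42, 0.0394). prdm1.S, which encodes a zinc finger repressor, rose, with 819.7 and 879.7 with ICD, against 92.3 with DBM (log2 difference 2.99 ± 0.28 SE, limma adjusted p = 0.00641). The intermediate filament gene prph.S had 175 and 613 with ICD, against 24.8 with DBM, a wide gap between the ICD arrays, and did not pass (log2 difference 3.06 ± 0.68 SE, limma adjusted p = 0.0857). elavl3.L (-1.21 ± 0.29, 0.109) and myt1.S (-1.49 ± 0.38, 0.136) did not pass either. The 4 calls made up 26.7% of the 15 tested, beside 2.64% of all named genes tested. They became 2 with the smaller offset, without the filter or with a stricter one.

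Genes of the outer epidermal layer split. itln1.L, the intelectin that goblet cells secrete, had 606 and 700.4 with ICD, against 10785 with DBM (log2 difference -4.01 ± 0.26 SE, limma adjusted p = 0.00242), and the periplakin gene ppl.L fell to 235 and 324 with ICD, against 1180.2 with DBM (limma adjusted p = 0.0315). The claudin gene cldn1.S (2.18 ± 0.33, 0.0299), the keratin copies krt19.L (2.00 ± 0.33, 0.0351) and krt19.S (1.68 ± 0.29, 0.0403) and the tetraspanin gene tspan1.L (1.83 ± 0.29, 0.0329) rose. The other tested probe sets of both krt19 copies had positive differences but were not called. In a krt19.S probe set among them the DBM signal of 247 lay between ICD signals of 160 and 764. In all, 4 of 48 tested members rose and 2 fell, of 56 on the array, with a median of 0.04. Of all named genes tested, 0.969% rose and 1.67% fell. itln1.L was the member of the list still called without the filter and without the trend. krt12.4.S, an epidermal keratin, and grhl3.S, a regulator of the epidermal barrier, were far above the filter level on each array, with 4317 and 3154 with ICD, against 11049.5 with DBM, and 2027 and 1220.1 with ICD, against 5008 with DBM, and did not pass (limma adjusted p = 0.0853 and 0.08). cdh1.S, the E-cadherin gene, disagreed between the ICD arrays, at 2034 and 70.3 on the ICD arrays, against 86.6 on the DBM array. Its first ICD signal alone stood apart.

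For small secretory cells, of which 9 of 16 listed genes were tested, the forkhead gene foxa2.L rose, with 277 and 619.9 with ICD, against 21.8 with DBM (log2 difference 3.48 ± 0.51 SE, limma adjusted p = 0.0285). Its DBM signal lay under the filter level, which foxa2.L passed through the ICD arrays. agr2.L, which encodes a protein of the secretory pathway, fell, with 354 and 234 with ICD, against 1200.2 with DBM (log2 difference -2.0 ± 0.33 SE, limma adjusted p = 0.0365), while its copy agr2.S had 2649 and 3517 with ICD, against 2272 with DBM, with the opposite sign, and did not pass (log2 difference 0.42 ± 0.30 SE, limma adjusted p = 0.776). foxa1.S, the forkhead gene linked to these cells, had 59 and 134 with ICD, against 441 with DBM and did not pass (log2 difference -2.10 ± 0.49 SE, limma adjusted p = 0.103), nor did scg2.L (-0.58) and pfkfb1.S (-0.47). Of the 9 tested genes of small secretory cells 22.2% were called, beside 2.64% of all named genes tested. The number called was 1 without the filter and 0 without the trend. In the overlapping cement and hatching gland list, 8 of 11 genes were tested, otx1.L rose and agr2.L fell, so that 25% were called. ag1.L (1.08, limma adjusted p = 0.233), a cement gland secretory gene, ag1.S (0.61, 0.637) and otx2.L (1.11, 0.219) did not pass.

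Both called genes of basal epidermal cells were higher with ICD. Of 22 tested basal epidermal cell genes, from 27 on the array, sox11.S and tp63.S rose, 0 fell and 20 did not pass. At an unadjusted p of 0.05 by limma, 7 were higher and 0 lower, and the median was 0.39. Calls made up 9.09% of the 22, beside 2.64% of all named genes tested. sox11.S, a gene of progenitor cells, had 2586 and 3734 with ICD, against 358 with DBM (log2 difference 3.06 ± 0.31 SE, limma adjusted p = 0.00733). tp63.S, the regulator of epidermal stem cells, had 308 and 437 with ICD, against 68.9 with DBM (log2 difference 2.16 ± 0.38 SE, limma adjusted p = 0.0407). Its call was kept in 3 and lost in 5 of 8 alternative settings. A dimmer tp63.S probe set, with 94.4 and 152 with ICD, against 25.5 with DBM, was not called. nectin2.L (1.29 ± 0.26, 0.0662), fgfr2.L (1.18 ± 0.27, 0.0929) and id3.L (1.01 ± 0.36, 0.32) were above DBM on both ICD arrays and did not pass.

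From the list for neural plate and crest, 32 genes of 58 on the array were tested, and 7 rose, 0 fell and 25 did not pass (limma; 13 higher and 1 lower at an unadjusted p of 0.05). Both ICD arrays were above DBM in 22 of the 32, beside 37.6% of all named genes tested. Calls made up 21.9% of the 32, beside 2.64% of all named genes tested. The median was 0.74, and 0.23 with dim members kept, and the number called was 3 without the trend. sox9.S, a regulator of neural crest, had 529 and 488 with ICD, against 36.1 with DBM, the DBM signal being below the filter level (log2 difference 3.31 ± 0.34 SE, limma adjusted p = 0.00733). pax7.L, a crest and dorsal neural gene, had 136 and 209 with ICD, against 5.19 with DBM, the DBM signal being below the filter level (log2 difference 3.07 ± 0.44 SE, limma adjusted p = 0.026). sox3.S, a gene of neural progenitors, had 2019 and 3451 with ICD, against 459.8 with DBM (log2 difference 2.48 ± 0.36 SE, limma adjusted p = 0.0274). The transcription factor genes irx1.L (2.86 ± 0.33), otx1.L (2.78 ± 0.43), zic1.S (2.28 ± 0.30) and sox8.L (2.14 ± 0.28) also rose, with limma adjusted p-values of 0.0126, 0.0315, 0.0205 and 0.0199. sox9.L (1.83, limma adjusted p = 0.103) and zic2.L (1.75, 0.116) were above DBM on both ICD arrays and did not pass. pax6.L went the other way, at 77.9 and 241 with ICD, against 787 with DBM, and did not pass (log2 difference -2.36 ± 0.58 SE, limma adjusted p = 0.118).

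The Wnt receptor gene fzd7.L rose, with 1125 and 1517 with ICD, against 177 with DBM (log2 difference 2.77 ± 0.30 SE, limma adjusted p = 0.0096), and the Wnt ligand gene wnt11b.L fell, with 46 and 74.6 with ICD, against 367 with DBM (log2 difference -2.34 ± 0.43 SE, limma adjusted p = 0.0478). These were the calls among 27 tested genes that respond to or carry Wnt and FGF signals, from 39 on the array, whose median was 0.41. They made up 7.41% of the 27, beside 2.64% of all named genes tested. wnt11b.L was not called with the smaller offset, without the filter or without the trend. Other fzd7.L probe sets also had positive differences, but the dimmest of them, at 1.66 and 1.56, were not called. sfrp2.S had 2138 and 925 with ICD, against 296 with DBM and did not pass (log2 difference 2.19 ± 0.47 SE, limma adjusted p = 0.0796). The ligand gene fgf3.L (2.08 ± 0.44, limma adjusted p = 0.0754) and the homeobox gene cdx2.L (-1.93 ± 0.39, 0.0666) did not pass.

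Epidermal transcription factors and BMP targets went both ways, with 3 of 47 tested genes higher and 3 lower, of 51 on the array (median -0.16). Calls made up 12.8% of the 47, beside 2.64% of all named genes tested. Beside hes4.S and foxi1.L, which also stand in other lists, klf17.L rose, with 3267 and 1694 with ICD, against 425 with DBM (log2 difference 2.42 ± 0.40 SE, limma adjusted p = 0.036), and so did the distal-less gene dlx6.L (2.15 ± 0.28, 0.0199). The homeobox genes msx2.L (-2.26 ± 0.30, 0.0199) and dlx2.L (-1.63 ± 0.27, 0.0365) fell. klf2.S had 512 and 149 with ICD, against 1794 with DBM, with the ICD arrays far apart, and did not pass (log2 difference -2.61 ± 0.62 SE, limma adjusted p = 0.105). ventx3.2.S (-2.37 ± 0.44, 0.0516) and the BMP feedback gene szl.L (-2.24 ± 0.43, 0.0554) were lower on both ICD arrays and did not pass. The number of calls in this list was 12 under quantile normalization, 9 with the larger offset, 4 without the filter and 3 without the trend.

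Markers of other germ layers and tissues were mostly dim. Under the filter were 22 of 35 endoderm genes, 33 of 45 mesoderm genes, 25 of 26 muscle genes and 19 of 23 blood and endothelium genes on the array, the copies of myod1, sox17a and gata1 among them. The tested endoderm genes summed to 853 and 1316 with ICD, against 3839 with DBM, and sox7.L made up 1539 of the DBM sum. sox7.L, a gene of endoderm and of vessels, had 69.2 and 38.2 with ICD, against 1539 with DBM (log2 difference -4.50 ± 0.42 SE, limma adjusted p = 0.00592). gata6.S, a GATA factor gene of endoderm and heart, had 37.9 and 23.3 with ICD, against 336 with DBM (log2 difference -2.91 ± 0.42 SE, limma adjusted p = 0.0271). For gata6.S both ICD signals lay under the filter level, which it passed through the DBM array. The same held for gata4.L, with 4.97 and 23.5 with ICD, against 123 with DBM. It also held for hhex.L, with 15.5 and 9.69 with ICD, against 107 with DBM. The sums count these genes, so the filter itself favours a higher DBM sum through them. sox7.L and gata6.S fell, foxa2.L rose, and 10 did not pass, among them gata4.L (log2 difference -2.23, limma adjusted p = 0.0794), hhex.L (-2.07, 0.0527) and gata5.S (-1.68, 0.0906). The median over the 13 tested was -1.70, but -0.21 with dim members kept. Calls made up 23.1% of the 13, beside 2.64% of all named genes tested.

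Tested mesoderm genes summed to 1108 and 1464 with ICD, against 1433 with DBM, and not.L, a notochord gene, rose, with 465 and 359 with ICD, against 61.4 with DBM (log2 difference 2.44 ± 0.36 SE, limma adjusted p = 0.0274). hand2.S, a gene of lateral mesoderm, fell, with 23.4 and 23.2 with ICD, against 349 with DBM (log2 difference -3.18 ± 0.39 SE, limma adjusted p = 0.0165). For hand2.S both ICD signals lay under the filter level, which it passed through the DBM array. wnt11b.L is also on this list, and the brachyury copies tbxt.L (log2 difference -1.60, limma adjusted p = 0.337) and tbxt.S (-1.10, 0.695) did not pass. Calls made up 25% of the tested mesoderm genes, beside 2.64% of all named genes tested. Of the blood and endothelium list, 4 genes were tested and 0 called by limma, also at an unadjusted p of 0.05. The globin genes hba-l5.L and hbg1.L stood at -0.85 and -0.60 and spib.S at 0.81. The lone tested muscle gene, tnni2.S, had a value of -0.34 and was not called. What part these tissues had in the other lists was not tested.

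The lists for cell cycle, ribosome, matrix and stress genes held few called genes. Of 110 tested cell cycle and licensing genes 0 were called by limma, and their median was 0.24. At an unadjusted p of 0.05, 12 were higher and 4 lower, beside 11.6% of all tested probe sets in either direction. Both ICD arrays lay above DBM in 64 of the 110 and below it in 21, beside 37.6% and 33.5% of all named genes tested. ccna1.S (log2 difference -1.52, limma adjusted p = 0.299), cdc25b.L (-1.50, 0.227) and cdk1.L (-1.28, 0.192) had the largest differences. The list leaves out the geminin copies, which rose, and e2f7.L (-1.58, limma adjusted p = 0.0365), cdk7.L (-1.68, 0.03) and ccnj.S (-1.87, 0.0403), cell cycle genes that fell and were named after their values were seen. The cyclin O copies, which fell, are outside it too. Of 83 ribosomal protein genes 0 were called, also at an unadjusted p of 0.05, and their median of 0.14 was made of 0.35 on the first ICD array and -0.10 on the second, so that the arrays differed in its sign. rps15.S (0.60), rps15a.S (-0.55) and rpl37.S (-0.45) lay farthest from 0. Of 27 matrix and adhesion genes 0 were called (4 higher and 1 lower at an unadjusted p of 0.05), with the matrix glycoprotein gene sparc.S at 2.11 ± 0.42 (0.0599) and the collagen gene col1a2.L at -1.83 ± 0.40 (0.0849). Of 32 stress and immediate early genes btg2.S alone was called, 3.12% beside 2.64% of all named genes tested. It encodes an antiproliferative protein and had 297 and 352 with ICD, against 1036 with DBM (log2 difference -1.63 ± 0.28 SE, limma adjusted p = 0.0416). dusp1.S (1.70, limma adjusted p = 0.298), nfkbia.S (1.53, 0.056) and jun.L (-1.27, 0.255) did not pass.

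Some of the largest differences lay in genes outside the lists. enc1.2.S, a copy of an ectoderm and neural cortex gene, had 507 and 509.5 with ICD, against 7.02 with DBM (log2 difference 4.45 ± 0.36 SE, limma adjusted p = 0.00388). cnfn.1.L, of the cornifelin genes, had 1209 and 852 with ICD, against 38 with DBM (log2 difference 4.23 ± 0.33 SE, limma adjusted p = 0.00388). The tetraspanin gene cd82.L had 1495 and 2482 with ICD, against 134 with DBM, and the caveolar coat gene cavin1.L 394 and 371 with ICD, against 14.4 with DBM. They lay 12.8-fold and 12.7-fold above DBM (limma adjusted p = 0.00641 and 0.00733), and lrig3.S, which encodes a membrane protein with leucine-rich repeats, 12-fold (0.00641). The DBM signals of enc1.2.S, cnfn.1.L and cavin1.L lay under the filter level, which these genes passed through the ICD arrays. On the lower side, saxo2.L, the gene of a protein of axonemal microtubules, had 50.7 and 52.1 with ICD, against 1389 with DBM (log2 difference -4.36 ± 0.36 SE, limma adjusted p = 0.00398). tsga10.L, a gene known from sperm tails in mammals, had 35.6 and 34.1 with ICD, against 1396 with DBM (log2 difference -4.77 ± 0.37 SE, limma adjusted p = 0.00388), and val.L had 44.7 and 41.8 with ICD, against 1747 with DBM (log2 difference -4.87 ± 0.36 SE, limma adjusted p = 0.00388). For these last genes both ICD arrays lay near the filter level and the DBM array far above it. tsga10.L, with both ICD signals under that level, passed it through the DBM array.

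Xenopus laevis is allotetraploid and keeps many genes as an L and an S copy. Both copies were tested for 1352 genes. Both were called for 9, in the same direction each time: hes5.1, hes5.2, gmnn and krt19 were higher, and ccno, kit, foxj1, gadd45g and cfap52 lower. For krt19 the other tested probe sets of each copy were not called. For 40 genes 1 copy was called, the other copy having the same sign in 35 and the opposite sign in 5 (agr2, dio3, ppt1, tmem53 and tspan1), and for 1303 neither was called. How often copies shared a sign over all 1352 genes was not counted, so the 35 cannot be set against it. Among genes named here, copies with the sign of their called partner that did not pass included dlx6.S (1.49), irx1.S (0.76), sox3.L (0.77), not.S (0.75) and tp63.L (0.94) on the higher side and gata6.L (-1.70), tfcp2l1.L (-1.29), cep83.S (-1.23) and dlx2.S (-0.85) on the lower side. Across the 1352 genes the differences of the copies correlated at r = 0.583, a description over genes that share arrays and in part probe sequence.

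The copies lay farthest apart for enc1.2, where the L copy had 308 and 329 with ICD, against 206 with DBM, a difference of 0.59 against 4.45 for the S copy. hes4, described above, came next. dio3.L, which encodes the enzyme that inactivates thyroid hormone, had 422 and 716 with ICD, against 47.6 with DBM (log2 difference 3.13 ± 0.41 SE, limma adjusted p = 0.019), while dio3.S had 48.7 and 58.6 with ICD, against 57.7 with DBM (log2 difference -0.08, limma adjusted p = 0.983). The S copy lay near the filter level on each array. tmem53.L fell, with 87 and 97 with ICD, against 559.8 with DBM, while tmem53.S had 672 and 945 with ICD, against 496 with DBM (-2.41 and 0.67, limma adjusted p = 0.0294 and 0.493). cd82.S had a difference of 0.82 beside 3.68 for its L copy, and tspan1.S one of -1.03 beside 1.83. A difference between the copies was not tested in any pair.

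**Figure D5:**
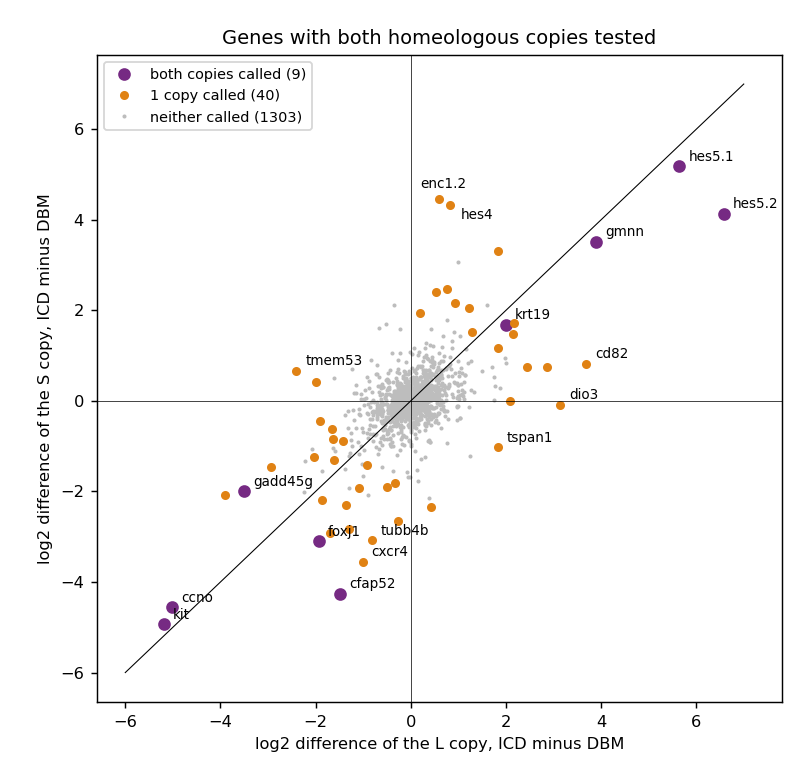
Each point is 1 of 1352 genes with both copies tested, with the log2 difference, ICD minus DBM, of the L copy on the x axis and of the S copy on the y axis, and the line marks equal differences. The 9 genes with both copies called lie in the upper right and lower left, and enc1.2 and hes4 lie high near the vertical axis, with the S copy alone called.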

How the data were processed

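The authors deposited 1 linear MAS5 intensity for every probe set on each array, made with MAS5 according to the submitters' processing notes. The version of MAS5 is not given in the sources used here. The table held 32635 probe sets, of which 96 are controls, and no detection calls were used, so a low signal says nothing about presence. The number of arrays limits the precision.

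Arrays were rescaled to a common 2% trimmed mean, an offset of 0.25 times the median signal (67.8) was added before the log2 step, and probe sets with a mean under 38.8 were left out. Fold changes on this scale understate those of dim genes. limma 3.58.1 in R 4.3.3 fitted the 3 arrays with 1 mean per injected RNA, with an intensity trend, two-sided, and Benjamini-Hochberg adjustment over 19523 probe sets. The fit had 1 residual and 5.76 prior degrees of freedom. The HMM array entered an alternative fit and the closing values of rbpj.S, and no main result.

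Symbols are those of GEO's platform annotation. A RefSeq gene table (Xenopus_laevis_v10.1) held 99.3% of the Entrez Gene identifiers and changed 2 symbols. Of the probe sets 15495 had 1 symbol, 279 several and 16765 none. A gene stands by its brightest probe set. Symbols starting with LOC, MGC or XB were not used as names. Promoter, protein and probe sequences were not used here.

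The members, the 24 gene lists and the tests were chosen with earlier results of these data known, so no list is independent support. The rule for named genes took the 15 highest and 15 lowest called genes, every tested member of both Notch lists, up to 6 called and 3 other members of each remaining list, and the 6 pairs of copies farthest apart. foxj1.L, foxj1.S, gmnn.S, fbxo43.L, sox8.L and the other genes named beyond it were chosen after their values were seen. On simulated arrays for this comparison, over 19523 probe sets, the fit recovered 11 of 49 probe sets changed by 1 on the log2 scale. It recovered 44 of 48 changed by 2, 50 of 50 changed by 3 and 50 of 50 changed by 4. It also called 24 of 19326 unchanged ones. Those 24 false calls were a larger share of all simulated calls than the adjusted p threshold stands for. The simulation cannot show whether the DBM array varies like the ICD pair, since that array has no replicate. Alternatives changed the rescaling, offset, filter, trend, arrays and probe sets.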

Additional observations from a re-analysis of the deposited data

How the results depend on the processing

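The signals as deposited, without rescaling, gave 0 called probe sets by limma (90 at an unadjusted p of 0.05) and 0 pairs of copies called alike, beside 424 and 9. By construction that setting leaves the brightness gap of the ICD arrays in the spread and moves the median log2 difference of all probe sets to -0.69 from 0.02. The count of calls was 228 without the filter, where 32539 probe sets were adjusted over, and 220 without the intensity trend. Quantile normalization gave 605, which held all 424 of the main calls, the offsets of 0.05 and 1 times the median 396 and 497, a stricter filter, at the 60th percentile, 381, and a fit that holds HMM as a group of its own 452. Higher probe sets made up 39.2% of the calls and 40.8% under quantile normalization. The count 4-fold apart in both ICD arrays, 298, was 152 with the offset of 1 times the median, and counted over the remaining ICD array alone it was 469 without ICD replicate 1 and 542 without ICD replicate 2, where 1 array against 1 allows no test of calls. Pairs of copies called alike numbered 14 under quantile normalization, 5 without the filter and 5 without the trend. Of 87 called genes named in the text by the rule, 61 stayed called under every alternative that tested them but the one without rescaling, and none changed sign. The stricter filter tested 81 of the 87. Of 30 other probe sets of called genes named by the rule, 15 were called alike and 15 were not called, of which that of rbpj.S had the opposite sign. No paired analysis was possible because DBM has 1 array and the labels give no pairing of arrays. The search for rbpj motifs in promoters was not run, since promoter sequences were not used here.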

Other observations

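Among called genes outside every list, chosen after their values were seen, the related heparin-binding growth factor genes ptn.L and mdk.L were both higher with ICD. ptn.L (pleiotrophin) had 5070.1 and 5485 with ICD, against 515 with DBM (log2 difference 3.31 ± 0.27 SE, limma adjusted p = 0.00388). mdk.L (midkine) had 2603 and 2997 with ICD, against 768 with DBM (log2 difference 1.84 ± 0.27 SE, limma adjusted p = 0.0271), and its copy mdk.S, with 1517 and 2433 with ICD, against 844 with DBM, did not pass (log2 difference 1.17 ± 0.34 SE, limma adjusted p = 0.187). crabp2.L, which encodes a retinoic acid binding protein, had 2075 and 2569.99 with ICD, against 389 with DBM (log2 difference 2.52 ± 0.27 SE, limma adjusted p = 0.0101). The intermediate filament gene nes.S (nestin) had 147 and 304 with ICD, against 9.24 with DBM (log2 difference 3.13 ± 0.51 SE, limma adjusted p = 0.0347), with the ICD arrays some way apart. Its DBM signal lay under the filter level. tcf7l1.S, a repressor of Wnt target genes, had 749 and 660.04 with ICD, against 156 with DBM (log2 difference 2.06 ± 0.29 SE, limma adjusted p = 0.0241).

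On the lower side, the alpha-tubulin gene tuba1cl.3.L had 2019 and 2543 with ICD, against 14421 with DBM (log2 difference -2.66 ± 0.32 SE, limma adjusted p = 0.0148). The ephrin receptor gene ephb3.S had 93.8 and 174 with ICD, against 896 with DBM (log2 difference -2.65 ± 0.42 SE, limma adjusted p = 0.0325), while its copy ephb3.L, with 714 and 781 with ICD, against 906 with DBM, did not pass (log2 difference -0.27 ± 0.26 SE, limma adjusted p = 0.868). sgk1.L, a kinase gene known for regulating ion channels, had 52.8 and 44.3 with ICD, against 480.3 with DBM (log2 difference -2.93 ± 0.39 SE, limma adjusted p = 0.0205). slc26a4l.L, of the SLC26 anion transporter family, had 18.8 and 7.12 with ICD, against 311 with DBM (log2 difference -3.48 ± 0.43 SE, limma adjusted p = 0.0169). For slc26a4l.L both ICD signals lay under the filter level, which it passed through the DBM array. The receptor ligand gene gas6.L had 100.4 and 102 with ICD, against 704 with DBM (log2 difference -2.61 ± 0.35 SE, limma adjusted p = 0.0199).

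With all 4 arrays rescaled together, the rbpj.S probe set that was high with DBM stood at 334 and 364 with ICD, 3583 with DBM and 371 with HMM. The brighter of the other probe sets stood at 1043 and 1142 with ICD, 1413 with DBM and 1147 with HMM.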
